A study of Mus musculus with 2 samples.

Results

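Complex I of the mitochondrial respiratory chain was followed in AML12 cells, a mouse hepatocyte line, through the genes whose symbols begin with Nduf. The members were all protein-coding Nduf genes with at least 10 reads over both libraries, and they were chosen by symbol and read number without regard to direction. The count table lists 46 such genes and 45 qualified, out of 14383 genes with at least 10 reads and 35275 genes listed. They comprise 11 genes with the prefixes Ndufs and Ndufv, called core here, 26 accessory genes with the prefixes Ndufa, Ndufb and Ndufc, and 8 assembly factors with the prefix Ndufaf. Ndufa4l2, whose product belongs to complex IV, had 0 reads in both libraries and was the 1 gene left out. Just inside the limit lay Ndufb2 with 181 reads in all and Ndufaf6 with 288.

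Young, the control condition, consisted of untreated AML12 cells. Old, the senescent condition, was the same line exposed to hydrogen peroxide for 1 h a day over 6 days, at 1 mM first and 0.75 mM on later days, with 23 h of recovery each time. Both carry the same labels for strain (CD-1), tissue (liver), sex (male) and age (3 months), and AML12 is a single line derived from a mouse that carried a transgene for human TGF-alpha, so neither condition is a sample of aged animals. Each condition was measured as 1 RNAseq library made from 3 pooled samples. The differences below therefore describe these libraries, there is no spread between replicates to set them against, and no p-value can be given.

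Complex I takes electrons from NADH, passes them along a flavin and a chain of iron-sulfur clusters to ubiquinone, and pumps protons across the inner mitochondrial membrane. Its matrix arm holds the flavin and the clusters, and its membrane arm holds the proton channels. Most subunits are encoded in the nucleus, the central membrane subunits are encoded in mitochondrial DNA, and assembly factors help to join the modules without staying in the finished enzyme. In hepatocytes the chain supports energy-demanding work such as gluconeogenesis and urea synthesis.

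The control library held 28021941 counted reads over 17403 detected genes and the senescent library 25738075 reads over 17592 genes, with 2.78% and 2.63% of reads from mitochondrially encoded genes. All 9 hepatocyte markers were detected, with 4 lower and 5 higher in the senescent library and a summed level of 8513 and 10169 CPM, the unit of reads scaled to a common library total. Most of that sum came from the keratins Krt8 and Krt18, and without them the other 7 markers summed to 3014 and 1874 CPM. Lower among these were albumin (Alb) with 32076 and 2917 reads, Apoa1 with 2026 and 197 reads, Ttr with 23146 and 10486 reads and Trf with 26 and 17 reads. The other 3 were higher, Apob at 762 and 1012 CPM, Hnf4a at 282 and 311 CPM and Cps1 at 0.653 and 2.22 CPM. The part of these markers in the ratios of the complex I genes was not tested. Macrophage markers summed to 2.65 and 6.29 CPM, with 2 of 6 without a read among control and 3 of 6 among senescent counts, and Adgre1 and Clec4f at 0 in both. Of the 7 fibroblast and stellate cell markers 6 (control) and 4 (senescent) were at 0, with sums of 0.722 and 0.282 CPM.

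All 37 subunit genes had a lower scaled level in the senescent library, whereas 4 of the 8 assembly factors were lower and 4 higher, a split that was 5 to 3 under upper-quartile and 6 to 2 under total-count scaling. The ratio used is the log2 of the senescent over the control count after TMM scaling, and its 95% interval covers counting error only. Over the 45 members the median ratio was -0.26, a fold of 0.833, against a median of -0.02 over all genes tested. Among all genes tested 51.1% had a ratio below 0, and among the members 41 of 45 did. The other 4 members lay above 0, where 48.9% of all genes did. The members were also spread less widely than all genes, with an interquartile range of 0.394 on the log2 scale against 0.835. This was not particular to them, since the range was 0.336 for nuclear subunits of complexes II to V and 0.445 for mitochondrial ribosomal proteins. All genes tested also include genes with as few as 10 reads, whereas each member had at least 181.

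Individual differences were mostly small. Of the 45 members 12 were lower past 0.5 on the log2 scale with an interval that left out 0, where 20.4% of all genes tested met the same rule. A single member was higher past 0.5, where 14.8% of all genes did. Past 1.5, the threshold of the study, only Ndufb2 was lower, against 5.6% of all genes, and no member was higher, against 2.71%. The interval lay wholly below 0 in 33 members and wholly above 0 in 1, beside 34.6% and 34% of all genes. Many members are abundant, and among the 7804 genes with at least 1000 reads 13.4% were lower past 0.5 and 16.5% higher. In that range 11 of 39 members, or 28.2%, were lower past 0.5 and 1 was higher, with medians of -0.26 for the members and 0.08 for all such genes.

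**Figure D1:**
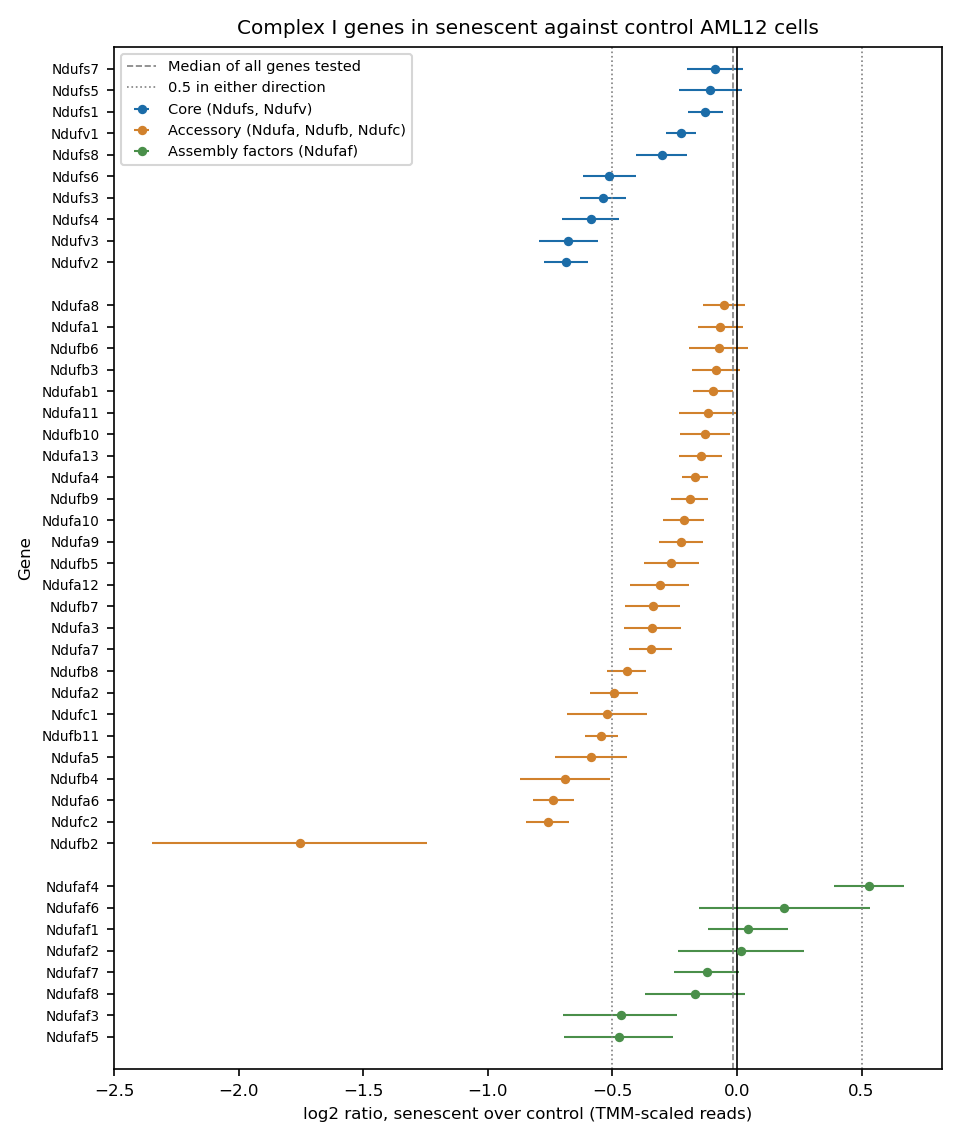
The log2 ratio of scaled reads, senescent over control, is plotted for the complex I genes named in the text, grouped as core, accessory and assembly, with bars for the 95% counting interval and 1 library per condition. All subunit points lie left of 0, Ndufb2 is farthest left at -1.75, and Ndufaf4 is farthest right at 0.53.

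In reads, the members together held 97352 of the control and 67354 of the senescent counts. These sums are 0.347% of the control reads (Clopper-Pearson 95% interval 0.345% to 0.350%) and 0.262% of the senescent reads (0.260% to 0.264%). After scaling the summed ratio was -0.30 (-0.32 to -0.29). The sum over the core genes went from 31249 to 21032 reads, a ratio of -0.34, and that over the accessory genes from 61811 to 42665 reads, a ratio of -0.31. Reads of the assembly factors summed to 4292 and 3657, a scaled ratio of -0.00 with an interval from -0.07 to 0.06. In bulk RNA fewer cells with a transcript and less of it per cell cannot be told apart.

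The core group had a median of -0.30 and a range from -0.69 to -0.09. All 11 genes were below 0, and 5 (45.5%) were lower past 0.5, beside 20.4% of all genes tested. At the entry of electrons, Ndufv2, the partner of the flavin subunit, carries an iron-sulfur cluster and was the lowest core gene, with 2933 control and 1554 senescent reads (log2 ratio -0.69, 95% interval -0.78 to -0.60). Its gene lies at chr17:66078638-66101559 on the minus strand of GRCm38. Ndufv3, a small accessory protein of the same module in spite of its prefix, had 1671 and 891 reads (-0.68, -0.80 to -0.56). Ndufv1, which binds NADH and the flavin, differed less, with 5365 and 3914 reads and a ratio of -0.23. The 3 neighbouring proteins of the NADH module thus did not share 1 ratio, and the intervals of Ndufv1 and Ndufv2 did not overlap.

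Ndufs4 is added late to the matrix arm and is the subunit whose loss in mice gives a model of Leigh syndrome. It had 1676 and 951 reads (-0.59, -0.70 to -0.47). Ndufs3, a scaffold of the ubiquinone-reducing module, had 2607 and 1533 reads (-0.54, -0.63 to -0.44). Ndufs6, a zinc-binding subunit at the junction of both matrix modules, had 1912 and 1143 reads (-0.51, -0.62 to -0.41). These genes and the lower pair of the Ndufv group make up the 5 core genes past 0.5. Opposite-strand genes overlap 4.04% of the exonic length of Ndufs3 and 3.34% of that of Ndufs6.

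Ndufs8, which carries iron-sulfur clusters near the ubiquinone site, had 1940 and 1341 reads and a ratio of -0.30. At the upper end stood Ndufs1, the largest subunit, with 3845 and 3003 reads (-0.13, -0.20 to -0.06). Ndufs5, a subunit on the intermembrane space side, had 1145 and 907 reads (-0.11, -0.23 to 0.02). Ndufs7, which carries the last cluster before ubiquinone, had 1423 and 1141 reads (-0.09, -0.20 to 0.02). For Ndufs5 and Ndufs7 no difference was detectable beyond counting error at this depth. An opposite-strand noncoding gene overlaps 6.05% of the exonic length of Ndufs1. Ndufs5 shares near-identical sequence with a pseudogene that held 12 and 0 reads.

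Split by descent, the 7 nuclear subunits conserved from bacteria had a median of -0.30 with 2 past 0.5 (28.6%). The 4 remaining Ndufs and Ndufv genes had a median of -0.55 with 3 past 0.5 (75%), beside 20.4% of all genes tested. The 5 iron-sulfur subunits Ndufs1, Ndufs7, Ndufs8, Ndufv1 and Ndufv2 had a median of -0.23. By position, the 16 genes of the matrix arm had a median of -0.42 with 7 lower past 0.5 (43.75%). The 19 of the membrane arm had a median of -0.21 with 5 lower (26.3%), beside 20.4% of all genes tested. The ranges of both arms overlapped, from -0.74 to -0.09 in the matrix arm and from -1.75 to -0.05 in the membrane arm.

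Among the accessory genes all 26 ratios were below 0, with a median of -0.29. Lower past 0.5 were 7 (26.9%), beside 20.4% of all genes tested. Ndufb2, a small membrane arm subunit encoded at chr6:39592574-39603382 on the plus strand of GRCm38, was the lowest, with 145 control and 36 senescent reads (-1.75, -2.35 to -1.25). That ratio lay at percentile 4.26 of all genes tested, and the gene also had the fewest reads of all members. A few of its exonic bases overlap opposite-strand genes, Gm16272 over 156 bases and a protein-coding gene with more reads than Ndufb2 over 146 bases. Reads from these overlaps cannot be assigned without strand. Without Ndufb2 the lowest subunit ratio was -0.76.

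Ndufc2 sits in the membrane arm near its junction with the matrix arm. Its gene at chr7:97400003-97407802, plus strand, had 3386 and 1705 reads (-0.76, -0.85 to -0.68). The other member of its prefix, Ndufc1, had 875 and 520 reads (-0.52, -0.68 to -0.36), and its sequence holds a stretch shared with several other genes. Ndufa6, a protein of the LYR family that docks the acyl carrier subunit on the matrix arm, had 3516 and 1798 reads (-0.74, -0.82 to -0.66), from chr15:82350140-82354322 on the minus strand. Ndufab1, that acyl carrier protein, had 2810 and 2240 reads and a ratio of -0.10. The acyl carrier subunit and its docking protein therefore differed in ratio beyond counting error, although part of the Ndufab1 sequence is shared with pseudogenes.

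Ndufb4, of the distal membrane arm, had 734 and 388 reads (-0.69, -0.87 to -0.51). It shares near-identical sequence with the pseudogene Ndufb4c, which held 3 and 0 reads. Ndufa5, on the matrix arm beside the ubiquinone module, had 1063 and 604 reads (-0.59, -0.73 to -0.44). Ndufb11, an X-linked membrane arm subunit, had 5045 and 2950 reads (-0.54, -0.61 to -0.48), and 12.9% of its exonic length overlaps Rbm10 on the opposite strand, which had a ratio of -0.37. Close to the limit of 0.5 but inside it were Ndufa2, a thioredoxin-fold subunit of the NADH module, at -0.49 with 2405 and 1457 reads, and Ndufb8 at -0.44 with 3402 and 2136 reads. Of the exonic length of Ndufa2, 11.5% overlaps an opposite-strand gene with a ratio of -1.03.

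The accessory genes nearest to 0 were Ndufa8, an intermembrane space subunit with 2519 and 2070 reads (-0.05, -0.14 to 0.03), Ndufa1, an X-linked anchor of the membrane arm with 2239 and 1823 reads (-0.07, -0.16 to 0.02), and Ndufb6 with 1329 and 1077 reads (-0.07, -0.19 to 0.04). Their intervals included 0, as did that of Ndufb3 at -0.08. Ndufb6 shares 39.0% of its exonic length with the opposite-strand gene Smim27, which had a ratio of -0.79. The intervals of Ndufa1 and Ndufb11, both X-linked, did not overlap.

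Between these ends, Ndufa7, Ndufa3, Ndufb7 and Ndufa12 had ratios from -0.35 to -0.31. Ndufa12 shares 99.5% of 402 bases with the pseudogene Gm15920, which had 489 and 391 reads, so its count is uncertain. Ndufb5, Ndufa9 and Ndufa10 had ratios from -0.26 to -0.21, and Ndufa9 is a protein of the short-chain dehydrogenase fold that binds a nucleotide near the ubiquinone site. Opposite-strand genes overlap 12.3% of the exonic length of Ndufb5, with a ratio of 0.12, and 6.41% of that of Ndufa11, with a ratio of -0.42. Ndufb9, Ndufa13, Ndufb10 and Ndufa11 ranged from -0.19 to -0.12. Ndufa13 shares 30.0% of its exonic length with Tssk6, which held only 6 and 2 reads. Ndufa4, first described with complex I and now assigned to complex IV, had 6936 and 5265 reads (-0.17, -0.22 to -0.12), and the 36 subunits without it were likewise all below 0.

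Among the assembly factors the median was -0.05, with 4 of 8 genes below 0 (5 under upper-quartile and 6 under total-count scaling) and 5 intervals that included 0. Ndufaf4, which acts with Ndufaf3 on the early ubiquinone module, was the only member higher past 0.5, with 753 control and 928 senescent reads (0.53, 0.39 to 0.67). It lies at chr4:24898083-24905001 on the plus strand, and under upper-quartile or total-count scaling it was no longer past 0.5. Its partner Ndufaf3 had 420 and 259 reads (-0.47, -0.70 to -0.24), from chr9:108565537-108567434 on the minus strand. Of the exonic length of Ndufaf3, 2.64% overlaps an opposite-strand gene with 5796 and 6340 reads. The ratios of Ndufaf4 and Ndufaf3 differed by more than their counting intervals and had opposite signs.

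Ndufaf5, a hydroxylase that modifies Ndufs7, had 461 and 283 reads (-0.47, -0.69 to -0.26). Its partner Ndufaf8 had 474 and 360 reads (-0.17, -0.37 to 0.03). Ndufaf7, a methyltransferase of the mitochondrial matrix, had 1071 and 839 reads and a ratio of -0.12, and its exons hold a stretch shared with many other genes.

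Ndufaf6, related to phytoene synthases, had 146 and 142 reads (0.19, -0.15 to 0.53). Ndufaf1, which acts in assembly of the membrane arm, had 683 and 601 reads (0.05, -0.12 to 0.21), and Ndufaf2, a late factor and paralogue of Ndufa12, had 284 and 245 reads (0.02, -0.24 to 0.27). Neither of these ratios held its sign, since Ndufaf1 was at -0.06 under total-count scaling and Ndufaf2 at -0.02 and -0.09 under upper-quartile and total-count scaling. For all but Ndufaf3, Ndufaf4 and Ndufaf5 the difference was within counting error. The medians of subunits and Ndufaf assembly factors differed by -0.25, and most Ndufaf genes had fewer reads than the subunits, which widens their intervals. Assembly factors with other names, described below, had a median of -0.54, lower than that of the subunits.

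**Figure D2:**
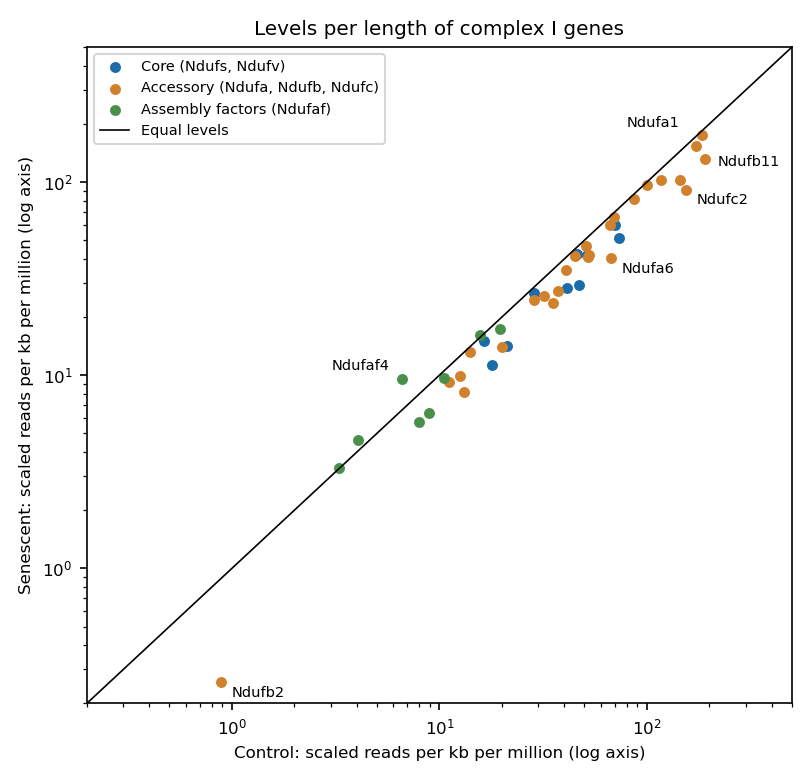
Scaled CPM per kb of exon in the control (x) and senescent (y) library are plotted on log axes for the same genes, coloured by group, with a line of equal levels and no error bars. Subunits lie below the line, assembly factors lie at lower levels on both sides of it, and Ndufb2 stands far below all others at 0.886 and 0.258.

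Levels of different genes were compared per length, as TMM-scaled CPM per kb of union exon. Subunits had a median level of 47.0 (control) and 40.8 (senescent), and assembly factors 8.41 and 7.98. The highest control levels were those of Ndufb11 at 191, Ndufa1 at 184 and Ndufa4 at 173, and in the senescent library Ndufa1 stood first at 175, followed by Ndufa4 at 154 and Ndufb11 at 131. Ndufc2 came next in the control at 154 and had a senescent level of 91.2. At the other end Ndufb2 had levels of 0.886 and 0.258, and the next-lowest control level of a subunit was 11.1 for Ndufb5. Subunit levels in the control thus spanned a ratio of 216 from highest to lowest. That span was set by Ndufb2 alone, with 145 control reads over 5628 exonic bases, and the order depends on the length used. With the mean length of coding transcripts Ndufa4 and Ndufa6 led in the control, and Ndufb2 remained lowest.

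The nuclear subunits of the other respiratory complexes and the ATP synthase give the closest comparison. Their 42 tested genes had a median of -0.22, with 33 below 0 and 5 lower past 0.5 (11.9%, beside 20.4% of all genes tested). The median of the 45 members, which include the assembly factors, lay 0.04 below theirs. Like for like, the 37 complex I subunits had a median of -0.30. Summed reads gave scaled ratios of -0.32 for these subunits and -0.15 for the 42 genes. Ratios at the low end were those of Cox7a1, a subunit isoform of complex IV known from heart and muscle, with 252 and 98 reads (-1.13), and Cox7b with 10603 and 5498 reads (-0.72). At the high end stood Sdhb, the iron-sulfur subunit of complex II, with 1976 and 2091 reads (0.31), and Uqcrc1 of complex III with 5796 and 5876 reads (0.25). All 37 complex I subunits were below 0, whereas 9 of the 42 genes of the other complexes were above, 5 under upper-quartile and 3 under total-count scaling.

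Mitochondrial ribosomal proteins, which translate the mitochondrially encoded subunits, were nearer to all genes. Their 76 tested genes had a median of -0.08, with 44 below 0. Lower past 0.5 were 7 (9.21%) and higher was 1 (1.32%), beside 20.4% and 14.8% of all genes tested. The extremes were Mrpl40 at -0.72 with 2631 and 1360 reads and Mrpl4 at -0.71 with 899 and 469 reads, and on the other side Mrpl43 at 0.52 with 2828 and 3457 reads and Mrps2 at 0.40 with 851 and 961 reads.

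**Figure D3:**
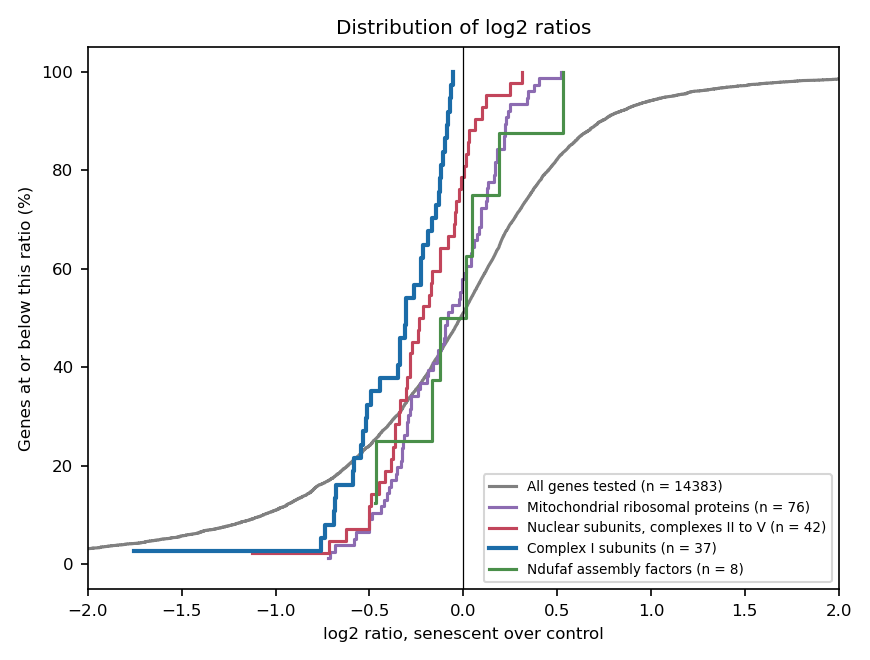
For each gene group the share of genes (%) at or below a given log2 ratio, senescent over control, is drawn as a step curve, cut at -2 and 2. The curve of the 37 complex I subunits reaches 100% before 0, while those of complexes II to V, mitochondrial ribosomal proteins, assembly factors and all 14383 genes extend past 0.

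The 7 mitochondrially encoded subunits of complex I form the core of the membrane arm and lay mostly on the other side of 0 from the nuclear ones. Their median was 0.12, with 5 of 7 above 0, where 48.9% of all genes tested were. Their reads summed to 271369 (control) and 264614 (senescent), a scaled ratio of 0.19 (0.19 to 0.20). The sum leans on mt-Nd2, since apart from mt-Nd4l only mt-Nd2 had more unscaled reads in the senescent library. With the most reads, mt-Nd1 was at 0.12, mt-Nd4 was at 0.22 and mt-Nd6 at 0.02. The median of all genes with at least 1000 reads was 0.08. mt-Nd2 had 38979 and 57070 reads (0.78, 0.76 to 0.80), and mt-Nd4l had 35 and 57 reads (0.91, 0.30 to 1.58). These are the fewest reads of the 7 genes, beside 35449 and 35096 for mt-Nd4. How far the mt-Nd4l count reflects its level was not tested. At the low end mt-Nd3 had 158 and 118 reads (-0.19, -0.55 to 0.16) and mt-Nd5 80286 and 64925 reads (-0.08, -0.09 to -0.06). Under total-count scaling their median was 0.0084 with 4 of 7 above 0. Poly(A) selection can capture mitochondrial transcripts unevenly, so levels of these genes are not set beside those of nuclear genes.

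Among 16 tested complex I assembly factors with other names the median was -0.54, with 14 below 0. Lower past 0.5 were 8 (50%) and higher was 1 (6.25%), beside 20.4% and 14.8% of all genes tested. Nubpl, which delivers iron-sulfur clusters to complex I, had 269 and 101 reads (-1.18, -1.53 to -0.85), and Sfxn4 had 97 and 42 reads (-0.96, -1.54 to -0.44). Opposite to these, Chchd4, the oxidoreductase that folds intermembrane space subunits, had 1180 and 1631 reads (0.70, 0.59 to 0.81), and Acad9, a membrane arm assembly factor, had 1407 and 1402 reads (0.22, 0.12 to 0.33). These factors thus included both lower and higher genes, as did the Ndufaf group, but with a lower median. That median was also below the -0.30 of the complex I subunits, so the higher median of the Ndufaf group was not shared by these factors.

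Genes of iron-sulfur cluster assembly, which supply the matrix arm, had a median of -0.21 over 15 tested genes, with 12 below 0. Lower past 0.5 were 3 (20%), near the 20.4% of all genes tested. Nfu1, a late carrier of clusters, had 1520 and 747 reads (-0.79). Glrx5 at 0.31, with 1609 and 1700 reads, and the chaperone Hspa9 at 0.28, with 21144 and 21861 reads, were on the other side.

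Of 13 regulators of respiratory chain genes 10 had a ratio above 0, where 48.9% of all genes tested did, and the median was 0.30. Past 0.5, 2 were lower and 2 higher (15.4% each), beside 20.4% and 14.8% of all genes tested. Ppargc1a, the coactivator PGC-1 alpha, was the only one past 1.5, with 105 and 16 reads (-2.42, -3.34 to -1.72). Among all genes tested 5.6% were lower past 1.5. Tfb1m, a methyltransferase for mitochondrial ribosomal RNA, had 240 and 111 reads (-0.88). Pprc1, a related coactivator, had 2821 and 4861 reads (1.01, 0.95 to 1.08), and Nrf1, nuclear respiratory factor 1, had 994 and 1286 reads (0.60, 0.48 to 0.72). No relation between these regulators and the members was tested.

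**Figure D4:**
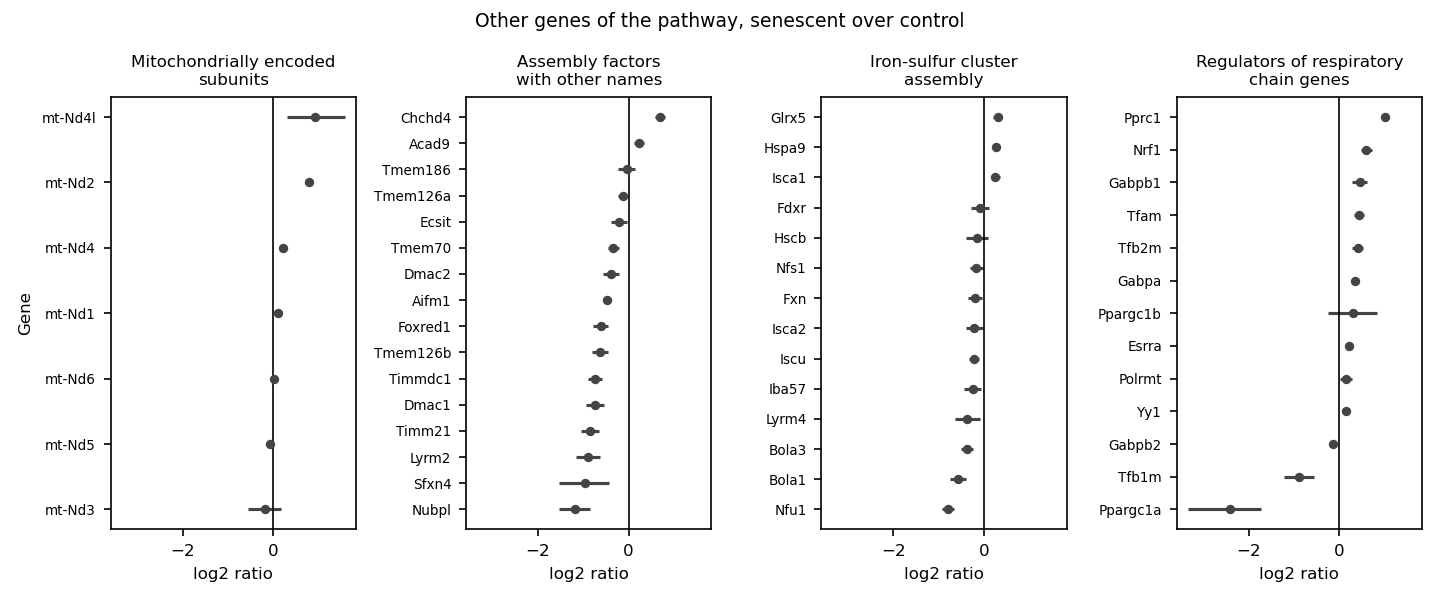
Log2 ratios, senescent over control, of single genes (points, without any gene not reported here) are plotted by gene group in 4 panels with a shared scale, and bars give the 95% counting interval with 1 library per condition. Most assembly factors with other names and most iron-sulfur cluster genes lie left of 0, most mitochondrially encoded subunits and regulators lie right of it, and Ppargc1a is farthest left at -2.42.

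Promoter sequence was compared because the subunit genes shared a direction. RefSeq promoter windows, 250 bases before to 50 after the RefSeq gene start on GRCm38.p6, were matched by symbol for 40 of the 45 members. The NRF1 core GCGCATGCGC, searched on both strands, was in 3 members (7.5%), Ndufa11, Ndufaf4 and Ndufaf5, against 0.962% of all 27025 windows and 2.06% of those of tested coding genes. CCGGAAG, a core bound by ETS factors, was in 6 members (15%), against 9.08% and 18.4%. AAGATGG, a core of YY1 sites, was in 8 members (20%), against 6.46% and 7.35%. A match is only a run of letters, and none of these motifs was shared by most members. Bases before the start are shown for 4 genes, the pair with an NRF1 core before the start, Ndufaf4 and Ndufa11, and the subunits with the lowest ratios, Ndufc2 and Ndufb2, which held none of the 3 cores. Capitals mark the NRF1 core, which begins 113 bases before the start in Ndufaf4 and 60 bases before it in Ndufa11. All are on the plus strand, 5′ to 3′, from chr4:24897833-24898082 (Ndufaf4), chr17:56717692-56717761 (Ndufa11), chr7:97399753-97400002 (Ndufc2) and chr6:39592315-39592564 (Ndufb2).
Ndufaf4: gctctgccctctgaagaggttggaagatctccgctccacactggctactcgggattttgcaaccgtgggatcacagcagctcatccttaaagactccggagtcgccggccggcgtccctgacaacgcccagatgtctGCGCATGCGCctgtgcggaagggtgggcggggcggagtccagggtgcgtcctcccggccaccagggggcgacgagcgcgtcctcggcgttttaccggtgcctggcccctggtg
Ndufa11: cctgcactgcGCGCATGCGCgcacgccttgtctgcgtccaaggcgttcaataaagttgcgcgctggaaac
Ndufc2: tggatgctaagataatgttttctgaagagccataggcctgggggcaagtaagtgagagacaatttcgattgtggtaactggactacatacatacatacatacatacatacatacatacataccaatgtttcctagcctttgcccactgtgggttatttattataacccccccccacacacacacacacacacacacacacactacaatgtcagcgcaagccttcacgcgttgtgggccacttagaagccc
Ndufb2: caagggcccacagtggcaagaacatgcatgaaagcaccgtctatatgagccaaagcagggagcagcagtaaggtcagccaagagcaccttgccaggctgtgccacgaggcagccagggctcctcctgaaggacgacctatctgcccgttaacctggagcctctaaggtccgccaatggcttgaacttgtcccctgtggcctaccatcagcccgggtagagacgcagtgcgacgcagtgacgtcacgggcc
The first pair of genes had ratios of 0.53 and -0.12, and Ndufaf5, which also holds the NRF1 core, had -0.47. With 3 such members, a relation between the core and the ratio was not tested.

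The members are short transcripts. Their median length, as the mean over coding transcripts, was 861 bases against 2223 over tested protein-coding genes, and 41 of 45 fell in the shortest of 4 equal length classes. In that class, from 39 to 1432 bases, the median ratio of all genes was -0.14 and that of the members -0.30. Over the classes of increasing length the medians of all genes were -0.14, -0.03, 0.02 and 0.13, and the part of transcript length in the members' ratios was not tested further. Across the 45 members the rank correlation of length and ratio was 0.05 (Spearman, a description over genes of the same libraries). Over the 12448 tested protein-coding genes it was 0.14. Because the members span a narrow range of lengths, their value cannot show whether length matters.

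Neighbouring genes were described in the same way. For 21 members a protein-coding gene starts head to head within 1000 bases, and 18 of these neighbours were tested. The neighbours had a median ratio of 0.03 with 9 of 18 below 0, and the members beside them a median of -0.23 with 17 below 0.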

How the data were processed

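The authors pooled 3 samples per condition into 1 poly(A)-selected, random-primed library and deposited un-normalized counts of reads per Ensembl gene. The submitters' processing notes name CASAVA, STAR, DESeq2, edgeR and mm10 without roles or versions, and the counting tool and use of strand are not given in the sources used here. Column names begin with Y or O and were matched to the titles Young and Old on that letter. Symbols, gene types and exons came from GENCODE M21 on GRCm38, which paired 97.8% of identifiers, and promoters from RefSeq on GRCm38.p6.

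Counts were scaled by TMM (edgeR 4.0.16, R 4.3.3) with a prior count of 1, split in proportion to library size. Intervals are 95% Clopper-Pearson intervals of the share of a gene's reads that are senescent. They cover counting error only, since 1 library per condition gives no spread between replicates. PCR reads carry no molecular identifiers, so copies of the same molecule cannot be told apart, and the intervals may be too narrow even for counting error. Genes with at least 10 reads over both libraries were tested, and a gene was called when its ratio was past 0.5, or past 1.5, and its interval left out 0. With 1 library per condition no test could be fitted and no p-value was computed. The script was tested on simulated data, where coverage of the intervals was required only in runs without biological variation. That check cannot show how the intervals would cover spread between replicates. Depth limits each gene's interval, and the count of 3 reads taken as the floor is 0.103 CPM (control) and 0.121 CPM (senescent).

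Full values are given for the 3 highest and 3 lowest ratios of each class, every member past 0.5, the 3 highest levels per length and the genes nearest to the limit of 10 reads, and for other lists the 2 highest and 2 lowest. Albumin, the other markers, Ndufab1, Ndufa2, Ndufb8, Ndufs8, Ndufv1 and some remaining members were named with reads or CPM after their values were seen. The members and lists, among them hepatocyte, macrophage and fibroblast markers, were chosen with earlier results of these data known. A few genes enter the counts and medians but are not reported singly here. Coa1 and Fdx2 were not matched to the table. Alternatives were DESeq2 1.42.0 size factors, upper-quartile and total-count scaling, other prior counts, read limits, thresholds and widened intervals.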

Additional observations from a re-analysis of the deposited data

How the results depend on the processing

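Among the members, Ndufaf1 changed sign under total-count scaling (-0.06) and Ndufaf2 under upper-quartile (-0.02) and total-count scaling (-0.09), all with intervals that included 0. No median of the members, their classes or the other lists changed sign in the alternatives run. The median of all genes did change sign. It was -0.02 in the main setting, 0.01 with a limit of 1 read and 0.006 with a limit of 100 reads. All 37 subunits were below 0 under each of the 4 scalings. Total-count scaling, which shifts the median of all genes by -0.11, moved the medians to -0.37 for the members, -0.41 for the core genes, -0.33 for complexes II to V and 0.0084 for the mitochondrially encoded subunits, and upper-quartile scaling moved the last to 0.076. It also moved 9 of 25 named members by more than their interval, all further below 0. DESeq2 size factors and other prior counts moved none of these 25. The number of members lower past 0.5, 12 in the main setting, was 23 with a threshold of 0.25 (29.0% of all genes), and it was 1 with a threshold of 1 (9.98% of all genes) or with intervals widened for a biological coefficient of variation of 0.4 (3.97%). The number higher past 0.5 was 0 under upper-quartile or total-count scaling, with the coefficient of 0.4 and with a threshold of 1 (13.2%, 10.9%, 1.69% and 5.09% of all genes). In alternatives chosen after seeing the data, the 31 subunits with an interval wholly below 0 became 36 under upper-quartile and 37 under total-count scaling (37.3% and 41.7% of all genes), 14 with a coefficient of 0.1 (21.3%) and 1 with 0.4 (3.97%), and leaving out Ndufb2 gave a median of -0.24 and 11 members lower past 0.5. With mitochondrially encoded genes left out of the total, the members held 0.357% of control and 0.269% of senescent reads. Mean transcript length gave a ratio of 238 between the highest and lowest level. The coefficients are assumed and not measured, because replicate spread is unknown. No paired analysis was possible because each condition has 1 library.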
